A study of Saccharomyces cerevisiae with 9 samples.

Results

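Gene expression was compared between cells of the budding yeast Saccharomyces cerevisiae given CdSe/ZnS quantum dots and untreated cells. The CdSe/ZnS group received 10 µg/mL for 6 h, a dose taken from the design text because the labels' treatment text names InP/ZnS alone, and the untreated group received no agent. Each group had 3 libraries, of 9 in the series, the other 3 being from cells given InP/ZnS quantum dots. All were labelled as strain S288C and had reached mid-log phase in synthetic glucose medium, at an optical density of 0.3 to 0.6, before exposure. Whether libraries of 1 group were grown as separate cultures is not in the labels, and the p-values therefore reflect the spread among the libraries as sequenced, possibly technical spread alone. The comparison covered every entry of the authors' table that had been tested and whose higher level was at least 10 FPKM, a measure of fragments per length of transcript and per library size. These were 5760 of 7012 entries, and of the 6321 that had been tested.

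A quantum dot is a semiconductor crystal a few nanometres wide that fluoresces; here a core of cadmium selenide is wrapped in zinc sulfide. Cadmium ions bind thiol groups in glutathione and proteins, and yeast is known to store them in the vacuole as glutathione conjugates through the transporter Ycf1. Known responses to free cadmium in yeast include sulfur assimilation under Met4, thiol defence under Yap1 and chaperone synthesis under Hsf1. Zinc uptake is controlled by Zap1, which activates its targets when zinc is scarce, and proteasome genes are controlled by Rpn4. The levels given below are the authors' FPKM, 1 value per condition that pools its libraries. Log2 fold changes are CdSe/ZnS over untreated, and their standard error (SE) is the one implied by the authors' test statistic; both follow some levels in parentheses. Entries were called higher or lower by the authors' q under 0.05, and "rose" and "fell" refer to those calls. Counts for a gene list are over its members that passed the floor.

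Sequences upstream of 5 genes show the sites by which these factors are known to act, and their levels are described in the paragraphs on chaperones, the proteasome and zinc. Each runs 5′ to 3′ on the coding strand from 250 bases before the first coding base to 50 bases from it, read from the RefSeq genome of assembly R64. Capitals mark matches, on either strand, to the perfect 3-unit heat shock element bound by Hsf1 (GAA, TTC and GAA in turn, each followed by 2 bases of any kind before the next, or TTC, GAA and TTC spaced alike), to the Rpn4 element (GGTGGCAAA) or to the Zap1 element (ACCTT, 1 base of any kind, then AAGGT). STI1 (chrXV:380803-381102, plus strand) and SSA2 (chrXII:97436-97735, minus strand), both chaperone genes that rose, carry the heat shock element. PRE6 (chrXV:255087-255386, plus strand) and PRE9 (chrVII:761142-761441, plus strand), both proteasome genes that fell, carry the Rpn4 element. ZRT1 (chrVII:20728-21027, plus strand), a zinc transporter gene that fell, carries the Zap1 element.
STI1: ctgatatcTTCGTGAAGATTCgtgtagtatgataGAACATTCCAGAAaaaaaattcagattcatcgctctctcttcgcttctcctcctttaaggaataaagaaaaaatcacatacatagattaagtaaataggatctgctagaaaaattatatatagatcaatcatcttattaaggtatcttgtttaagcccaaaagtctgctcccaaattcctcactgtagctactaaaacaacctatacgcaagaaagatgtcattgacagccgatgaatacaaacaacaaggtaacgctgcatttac
SSA2: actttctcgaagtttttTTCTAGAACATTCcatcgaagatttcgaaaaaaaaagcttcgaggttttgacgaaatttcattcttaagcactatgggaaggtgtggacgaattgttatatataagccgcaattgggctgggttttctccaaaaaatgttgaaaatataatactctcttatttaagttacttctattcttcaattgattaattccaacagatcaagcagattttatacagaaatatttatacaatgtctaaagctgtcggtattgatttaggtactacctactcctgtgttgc
PRE6: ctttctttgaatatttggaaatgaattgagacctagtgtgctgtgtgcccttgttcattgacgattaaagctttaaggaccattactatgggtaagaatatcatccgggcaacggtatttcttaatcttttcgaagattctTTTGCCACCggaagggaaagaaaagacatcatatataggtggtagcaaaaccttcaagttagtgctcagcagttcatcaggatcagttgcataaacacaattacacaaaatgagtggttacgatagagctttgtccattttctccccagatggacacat
PRE9: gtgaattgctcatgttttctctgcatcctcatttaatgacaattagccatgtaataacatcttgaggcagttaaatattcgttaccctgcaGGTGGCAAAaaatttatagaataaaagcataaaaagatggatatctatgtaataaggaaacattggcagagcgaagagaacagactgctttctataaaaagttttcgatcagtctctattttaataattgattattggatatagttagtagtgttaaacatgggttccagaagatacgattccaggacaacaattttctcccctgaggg
ZRT1: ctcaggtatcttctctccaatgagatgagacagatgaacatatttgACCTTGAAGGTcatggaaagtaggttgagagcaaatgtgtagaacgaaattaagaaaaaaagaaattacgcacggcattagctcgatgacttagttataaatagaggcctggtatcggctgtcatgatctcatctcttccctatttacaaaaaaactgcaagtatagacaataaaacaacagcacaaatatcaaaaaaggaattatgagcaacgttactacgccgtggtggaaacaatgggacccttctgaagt

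The strain label was set beside marker genes, because S288C is known as a haploid of mating type alpha with an intact URA3. Genes specific to a cells were expressed at high levels. MFA1 and MFA2, which encode the a-factor pheromone, had 11133 FPKM with CdSe/ZnS against 18407 untreated and 14225 FPKM with CdSe/ZnS against 22154 untreated. STE2, the receptor for alpha factor in a cells, had 122 FPKM with CdSe/ZnS against 102 untreated, and AGA2, an a-cell agglutinin gene, 177 FPKM with CdSe/ZnS against 363 untreated. All 7 a-cell genes passed the floor. The alpha-cell genes MATALPHA1 and MATALPHA2 were listed at 0 in both conditions, MF(ALPHA)1 stood at 0.670 FPKM with CdSe/ZnS against 0.848 untreated without being tested, and STE3 stood at 2.68 FPKM with CdSe/ZnS against 3.76 untreated. MF(ALPHA)2 was measured at 29.4 FPKM with CdSe/ZnS against 45.9 untreated. It and YLR040C were the 2 of 4 listed alpha-cell markers that passed the floor, and both fell. Their median level was 29.4 FPKM with CdSe/ZnS against 59.5 untreated, so not every alpha-cell marker was near 0. URA3 was listed at 0 in both conditions, as were the metallothionein genes CUP1-1 and CUP1-2. HIS3, which shares its locus with other entries, had 1059 FPKM with CdSe/ZnS against 1671 untreated, LYS2 339.8 FPKM with CdSe/ZnS against 268 untreated and ADE2 252 FPKM with CdSe/ZnS against 184 untreated. A listed 0 is no measure of absence in this table, since genes that every cell uses, such as the ribosomal protein genes RPL41A and RPL41B, are listed at 0 as well. The levels of the a-cell genes go against the mating type known for the labelled strain, in both conditions. Meiotic genes were low, with 4.44 FPKM with CdSe/ZnS against 10.1 untreated for IME1, 6.54 FPKM with CdSe/ZnS against 3.21 untreated for IME2 and 1.999 FPKM with CdSe/ZnS against 2.36 untreated for SPO11.

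Most entries stood lower with CdSe/ZnS. The distribution had a median log2 fold change of -0.37 (0.773-fold), a lower quartile of -0.79 and an upper quartile of 0.03. By the deposited q, 555 entries (9.64%) rose and 2660 (46.2%) fell, so that 55.8% were called, 82.7% of the calls being lower. With each log2 fold change set relative to that median, by adding 0.37, and tested against its SE in a normal test, 732 (12.7%) were higher and 800 (13.9%) lower, or 47.8% and 52.2% of the calls. The FPKM of all entries summed with CdSe/ZnS to 0.695 of the untreated sum, and rescaling both to the same total adds 0.52 to every log2 fold change and turned the median to 0.15. Of 81 gene lists examined, 65 had a median below 0, of which 29 turned positive relative to the median and 42 with equal totals, while 23 stayed below 0 with both. The share of lower calls therefore depends on the scale chosen. The authors' calls were also more numerous than those of the normal test on the values as deposited, which called 266 higher and 1835 lower, so a change called by q can be under 2 SE, as for HSP42 and NME1. In bulk RNA, fewer cells of a kind and less RNA per cell cannot be told apart, which holds for every value below. The SE had a median of 0.24, and its range from the 5th to the 95th percentile was 0.21 to 1.03. Just inside the floor, 50 entries between 10.0 and 10.6 FPKM had a median of -0.09, and 50 just outside it, from 9.39 to 9.99 FPKM, a median of -0.13. An entry with 1 level under the floor passed only through the other level, so its direction follows from the floor. Among the genes named below as higher, this holds for TIR1, YHR130C, YKR104W, GAC1 and FRE2, among others. Among those named as lower, it holds for BSC1, OSW2, CLN2 and ATG12, among others. Large changes were fewer, since 85 entries rose and 875 fell by at least 1 on the log2 scale.

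**Figure D1:**
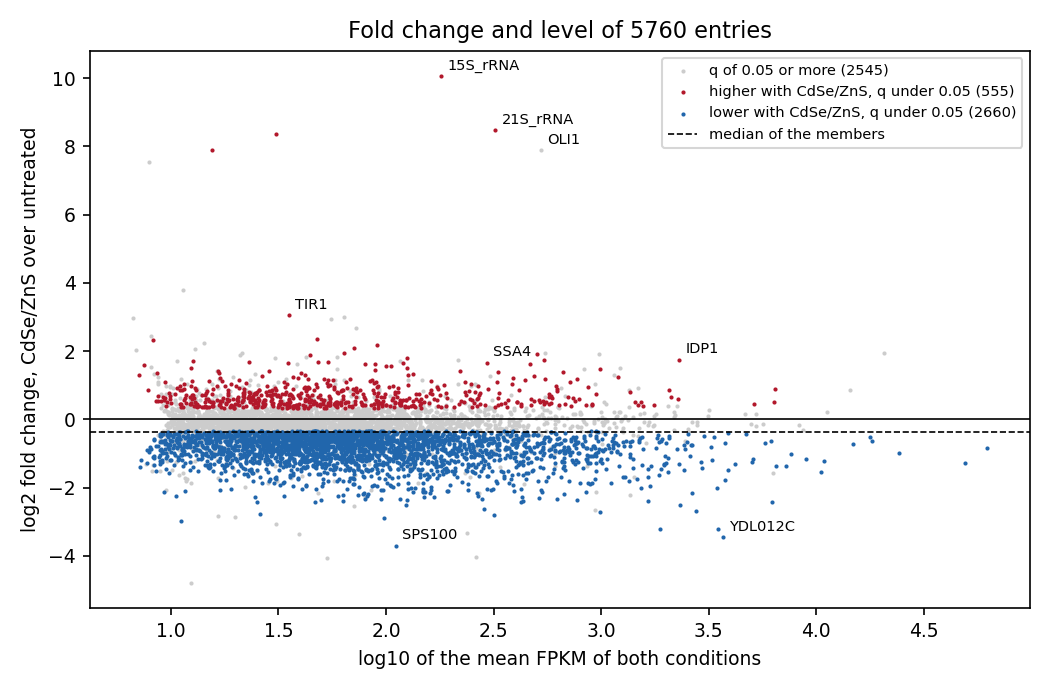
Log2 fold change of CdSe/ZnS over untreated (vertical axis) against the log10 mean FPKM of both conditions (horizontal axis) for 5760 entries. Each point is 1 entry, coloured by the authors' call, the dashed line is the median of -0.37, and 3 RNAs of the mitochondrial genome, 15S_rRNA, 21S_rRNA and OLI1, stand above all labelled nuclear genes.

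Fold change followed coding length. Across 5233 entries with a coding length, the Spearman correlation between length and log2 fold change was 0.35, a description across genes, which share their libraries and are not replicates. The 211 entries of up to 300 bp had a median of -0.82, with 3.79% higher and 54.5% lower. Between 600 and 1200 bp, the median of 1707 entries was -0.49, with 6.39% higher and 59.7% lower. Over 3000 bp, 378 entries had a median of 0.04, with 24.9% higher and 20.9% lower. Genes over 3000 bp were thus the 1 length class in which higher calls outnumbered lower ones.

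Level and base composition ran alongside. Entries with a mean under 30 FPKM had a median of -0.26 and those over 1000 FPKM a median of -0.62. The 100 entries with the highest untreated levels held 39.8% of all FPKM with CdSe/ZnS and 44.9% of all FPKM untreated, and 3 of them rose while 73 fell. Protein-coding genes of up to 36% G and C had a median of -0.24, against -0.54 for those over 44%. Of 164 genes with an intron in the coding sequence, ribosomal protein genes left out, 7 rose and 102 fell (median -0.59), against 524 and 2371 of 4925 without one (median -0.36). The parts that length, level and composition play in one another's trends were not tested.

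**Figure D2:**
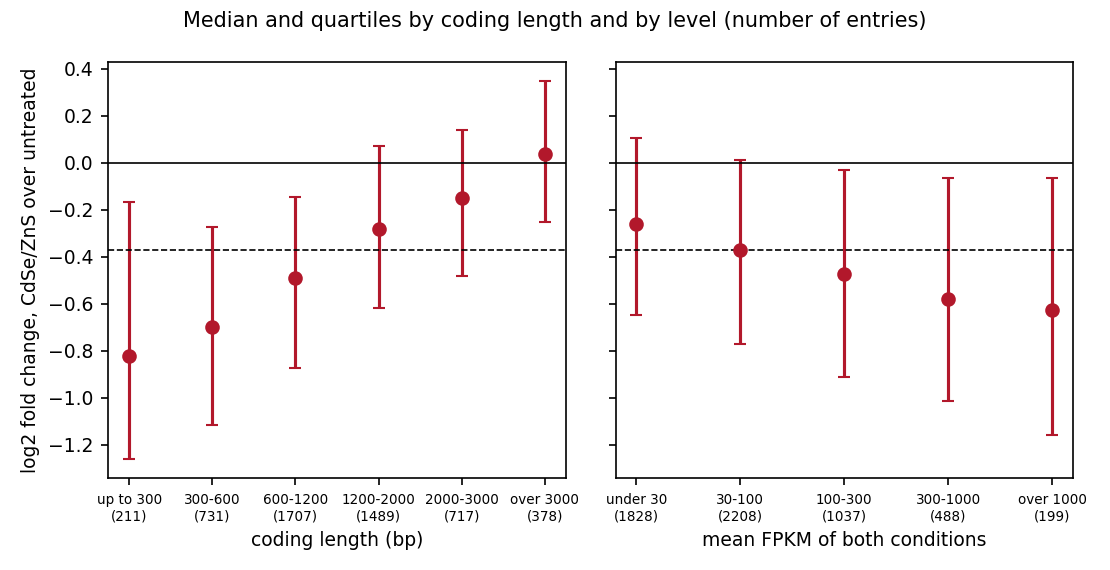
Median (points) and quartiles (bars) of the log2 fold change of CdSe/ZnS over untreated by coding length in bp (left) and by mean FPKM of both conditions (right), with the number of entries in each class. The median climbs from -0.82 in the shortest to 0.04 in the longest genes and declines from -0.26 at the lowest to -0.62 at the highest levels; the dashed line is the median of all entries.

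Chromosomes had similar medians, and genes near their ends were more often called higher. Medians of the 16 nuclear chromosomes lay between -0.43 (chromosome XI) and -0.30 (chromosome III). Within 20 kb of a chromosome end, 28 of 106 genes rose and 35 fell, or 26.4% and 33.0%, with a median of -0.24. Of the 5119 genes farther in, 9.83% rose and 49.9% fell, with a median of -0.38.

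RNAs of the mitochondrial genome differed by far the most. This small genome encodes the ribosomal RNAs of the organelle and a few subunits of the respiratory chain and of ATP synthase. The small ribosomal RNA 15S_rRNA stood at 361 FPKM with CdSe/ZnS and 0.339 FPKM untreated, a log2 fold change of 10.06 (SE 0.71). The large ribosomal RNA 21S_rRNA stood at 643 FPKM with CdSe/ZnS and 1.80 FPKM untreated, a log2 fold change of 8.48 (SE 0.32). Both rose. OLI1, which encodes the membrane ring subunit of ATP synthase, stood at 1044 FPKM with CdSe/ZnS against 4.44 untreated and was not called, with a log2 fold change of 7.88 (SE 1.55) and q = 0.0521 in the authors' deposited table. The intron-encoded frames AI1 (61.6 FPKM with CdSe/ZnS against 0.186 untreated) and AI2 (31.0 FPKM with CdSe/ZnS against 0.130 untreated) rose, and COX1, whose gene contains them, had 15.7 FPKM with CdSe/ZnS against 0.0849 untreated without being called (q = 0.241 in the authors' deposited table). These 3 overlap and share reads. ATP6, under the floor, had 6.497 FPKM with CdSe/ZnS against 0.164 untreated.

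Of the 6 mitochondrial-genome entries that passed the floor, 4 rose and 0 fell, but all 6 passed only through their level with CdSe/ZnS, so that the direction follows from the floor. The untreated pool was near 0 for each. Other entries of that genome, including ATP8 and the transfer RNAs, were listed at 0 in both conditions. Since the values pool 3 libraries, a rise in all of them and a rise in 1 cannot be told apart. In the authors' separate table for InP/ZnS, 15S_rRNA was at 0.474 FPKM with InP/ZnS and 0.266 FPKM untreated.

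Of 7 other stable noncoding RNAs of the nucleus and cytosol, 4 rose and 0 fell. Libraries were made by poly(A) selection, per the labels, a step that RNAs without a long tail pass in part, and its part in these values was not tested. LSR1, the U2 RNA of the spliceosome, rose (120.3 FPKM with CdSe/ZnS against 39.4 untreated, log2 fold change 1.61, SE 0.26). SCR1, the RNA of the signal recognition particle, rose (88.5 FPKM with CdSe/ZnS against 56.0 untreated, 0.66, SE 0.24), as did TLC1, the telomerase RNA (23.7 FPKM with CdSe/ZnS against 13.2 untreated, 0.85, SE 0.28), and NME1, the RNA of RNase MRP (28.6 FPKM with CdSe/ZnS against 12.8 untreated, 1.16, SE 0.62). RPR1, the RNA of RNase P, stood at 32.4 FPKM with CdSe/ZnS against 22.7 untreated and was not called.

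Among 47 small nucleolar and nuclear RNAs with snR names, 9 rose and 1 fell, and the median log2 fold change was 0.34. Most of these RNAs guide the modification of ribosomal RNA. Of the 9, the largest increases were those of snR83 (149 FPKM with CdSe/ZnS against 33.0 untreated, 2.18, SE 0.42) and snR84 (69.5 FPKM with CdSe/ZnS against 18.7 untreated, 1.89, SE 0.37), both box H/ACA RNAs. The exception, snR76, fell (676 FPKM with CdSe/ZnS against 2259.5 untreated, -1.74, SE 0.67). The other 37 were not called.

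**Figure D3:**
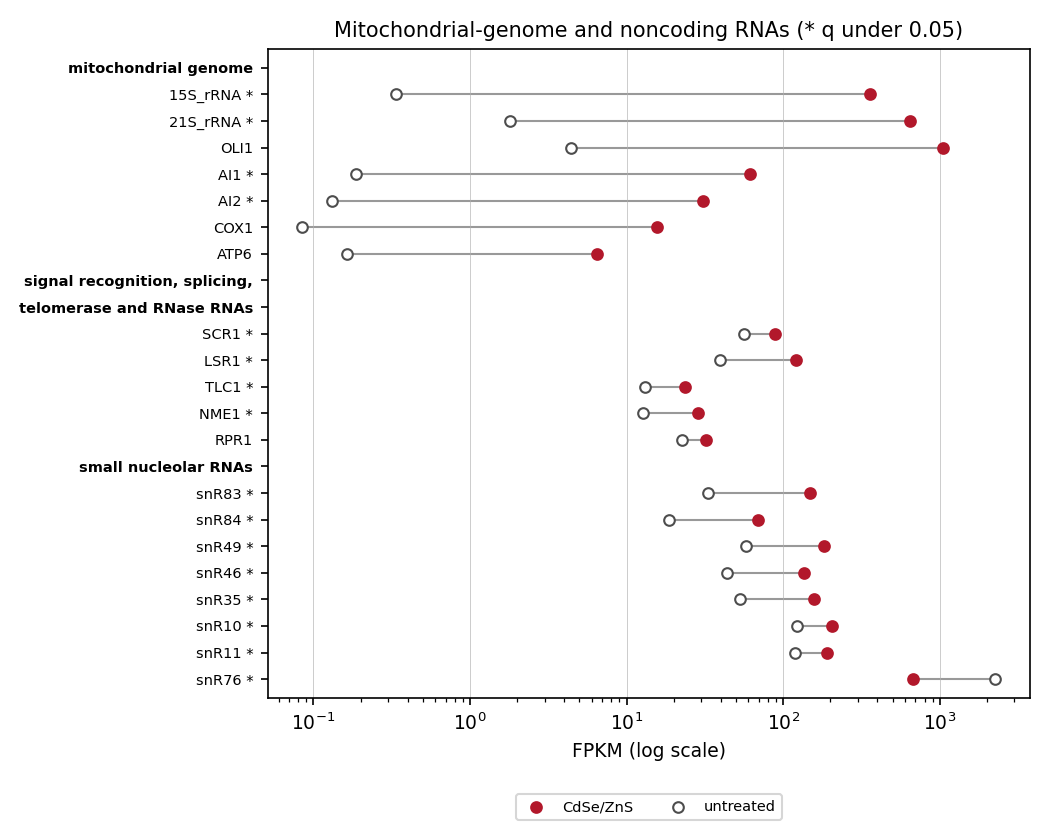
FPKM (log scale) of RNAs of the mitochondrial genome, of other stable noncoding RNAs and of small nucleolar RNAs; filled points are CdSe/ZnS and open points untreated, each 1 pooled value, and an asterisk marks a call. The mitochondrial RNAs lie below 5 FPKM untreated and reach 1044 FPKM, in OLI1, with CdSe/ZnS.

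Among chaperones of the cytosol, which fold new or damaged proteins, the Hsp70 class was higher. Of 9 Hsp70 and Hsp110 genes, 5 rose and 0 fell, with a median log2 fold change of 0.42, or 0.79 relative to the median of all entries. SSA4, the stress-induced member, had 448 FPKM with CdSe/ZnS and 142 FPKM untreated, 3.16-fold. SSA3, also stress-induced, had 91.2 FPKM with CdSe/ZnS against 49.0 untreated and the abundant SSA2 had 1183 FPKM with CdSe/ZnS against 703 untreated. SSA1, which shares its locus with another entry, had 1692 FPKM with CdSe/ZnS against 714 untreated. SSE1, an Hsp110 that exchanges the nucleotide of Hsp70, rose as well (1036 FPKM with CdSe/ZnS against 773 untreated). Stress-induced and constitutive SSA genes thus both rose, while the ribosome-bound SSB1 (261 FPKM with CdSe/ZnS against 271 untreated) and SSB2 (325 FPKM with CdSe/ZnS against 303 untreated) were not called.

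Of the Hsp90 group, 6 of 14 rose and 6 fell. HSP82 (1066 FPKM with CdSe/ZnS against 471 untreated) and HSC82 (959 FPKM with CdSe/ZnS against 365 untreated), which encode near-identical Hsp90 proteins and may share reads, both rose. STI1, which hands clients from Hsp70 to Hsp90, rose (979 FPKM with CdSe/ZnS against 457 untreated, log2 fold change 1.10, SE 0.25), and so did AHA1, an activator of the Hsp90 ATPase (717 FPKM with CdSe/ZnS against 450.1 untreated). CPR6, a cyclophilin cochaperone that shares its locus, and SGT1, an adaptor for kinetochore assembly, rose too (437 FPKM with CdSe/ZnS against 297 untreated and 58.7 FPKM with CdSe/ZnS against 43.4 untreated). The 6 that fell included SBA1, the p23 cochaperone that slows the ATPase (246 FPKM with CdSe/ZnS against 706 untreated, -1.52, SE 0.25), and TAH1 (124 FPKM with CdSe/ZnS against 349 untreated) and PIH1 (18.3 FPKM with CdSe/ZnS against 29.5 untreated) of the R2TP complex. CNS1 (29.3 FPKM with CdSe/ZnS against 60.9 untreated), CPR7 (10.1 FPKM with CdSe/ZnS against 18.0 untreated) and CDC37 (40.2 FPKM with CdSe/ZnS against 51.2 untreated), the kinase adaptor, completed them. CDC37 turned to 0.02 relative to the median.

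J proteins, which stimulate Hsp70, and nucleotide exchange factors had 3 higher and 4 lower of 12. YDJ1, the main cytosolic J protein gene, rose (479 FPKM with CdSe/ZnS against 368 untreated), as did FES1, an exchange factor (714 FPKM with CdSe/ZnS against 465 untreated), and JJJ1, which shares its locus (51.8 FPKM with CdSe/ZnS against 36.1 untreated). HLJ1, a J protein of the endoplasmic reticulum membrane, fell (75.9 FPKM with CdSe/ZnS against 149.7 untreated), as did DJP1 of peroxisome import (27.2 FPKM with CdSe/ZnS against 51.7 untreated). SIS1, an essential J protein gene, stood at 1038 FPKM with CdSe/ZnS against 1037 untreated and was not called.

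Small heat shock proteins and factors that handle aggregates gave a mixed picture. HSP42, which sorts misfolded proteins into cytosolic deposits, rose (1696 FPKM with CdSe/ZnS against 1269 untreated, 0.42, SE 0.26), together with BTN2, a sorting factor (566 FPKM with CdSe/ZnS against 376 untreated), and HSP31, a methylglyoxalase and chaperone gene (799.7 FPKM with CdSe/ZnS against 448 untreated). HSP104, the disaggregase, had 708 FPKM with CdSe/ZnS against 549.5 untreated and was called only relative to the median, as was HSP12 (2357 FPKM with CdSe/ZnS against 2018 untreated). HSP26, a small heat shock protein gene of stationary phase, fell (387 FPKM with CdSe/ZnS against 930.3 untreated, -1.27, SE 0.25). HSP30, a plasma membrane protein gene, also fell (583 FPKM with CdSe/ZnS against 778 untreated).

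Chaperones for actin and tubulin were lower. Of 14 genes of the CCT chaperonin and of prefoldin, which delivers substrates to it, 0 rose and 11 fell, and the median of -0.70 stayed below 0 both relative to the median (-0.33, with 3 lower) and with the length trend removed (-0.37). The prefoldin genes GIM3 (128 FPKM with CdSe/ZnS against 379 untreated) and YKE2 (70.8 FPKM with CdSe/ZnS against 194 untreated) fell furthest, and of the chaperonin ring CCT5 (32.7 FPKM with CdSe/ZnS against 57.8 untreated) did. TCP1 (51.7 FPKM with CdSe/ZnS against 57.9 untreated) and CCT8, which shares its locus (98.4 FPKM with CdSe/ZnS against 92.7 untreated), were not called.

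In the endoplasmic reticulum 3 of 16 folding genes rose and 6 fell. KAR2, its Hsp70, rose to 334 FPKM with CdSe/ZnS, against 163 FPKM untreated (1.04, SE 0.25). HAC1, the transcription factor of the unfolded protein response, rose (1727 FPKM with CdSe/ZnS against 992 untreated) but shares its locus with another entry, and EUG1, a disulfide isomerase gene, rose to 23.3 FPKM with CdSe/ZnS, against 17.2 FPKM untreated. SCJ1, a luminal J protein gene (21.6 FPKM with CdSe/ZnS against 41.1 untreated), and FPR2, a prolyl isomerase gene (69.4 FPKM with CdSe/ZnS against 122 untreated), fell. In mitochondria SSC1, the matrix Hsp70, rose (715 FPKM with CdSe/ZnS against 425 untreated), while HSP60 (277 FPKM with CdSe/ZnS against 259.8 untreated) was not called and its partner HSP10 fell (802 FPKM with CdSe/ZnS against 1349 untreated). That list had 1 higher and 8 lower of 14.

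Perfect heat shock elements within the 300-base windows were rare. They occurred in 45 of 5225 (0.861%), in 7 of 531 upstream of genes that rose (1.32%) and in 18 of 2590 upstream of genes that fell (0.695%). The 7 were those of STI1, KAR2, ZPR1, SSA2, FES1, SSE1 and HSP42. STI1 held 2 matches, beginning 242 and 216 bases before its start, and SSA2 held 1, at 233 bases before. The match says nothing of elements farther upstream or of imperfect ones. HSF1 itself, which shares its locus, was at 114 FPKM with CdSe/ZnS against 126 untreated and was not called.

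**Figure D4:**
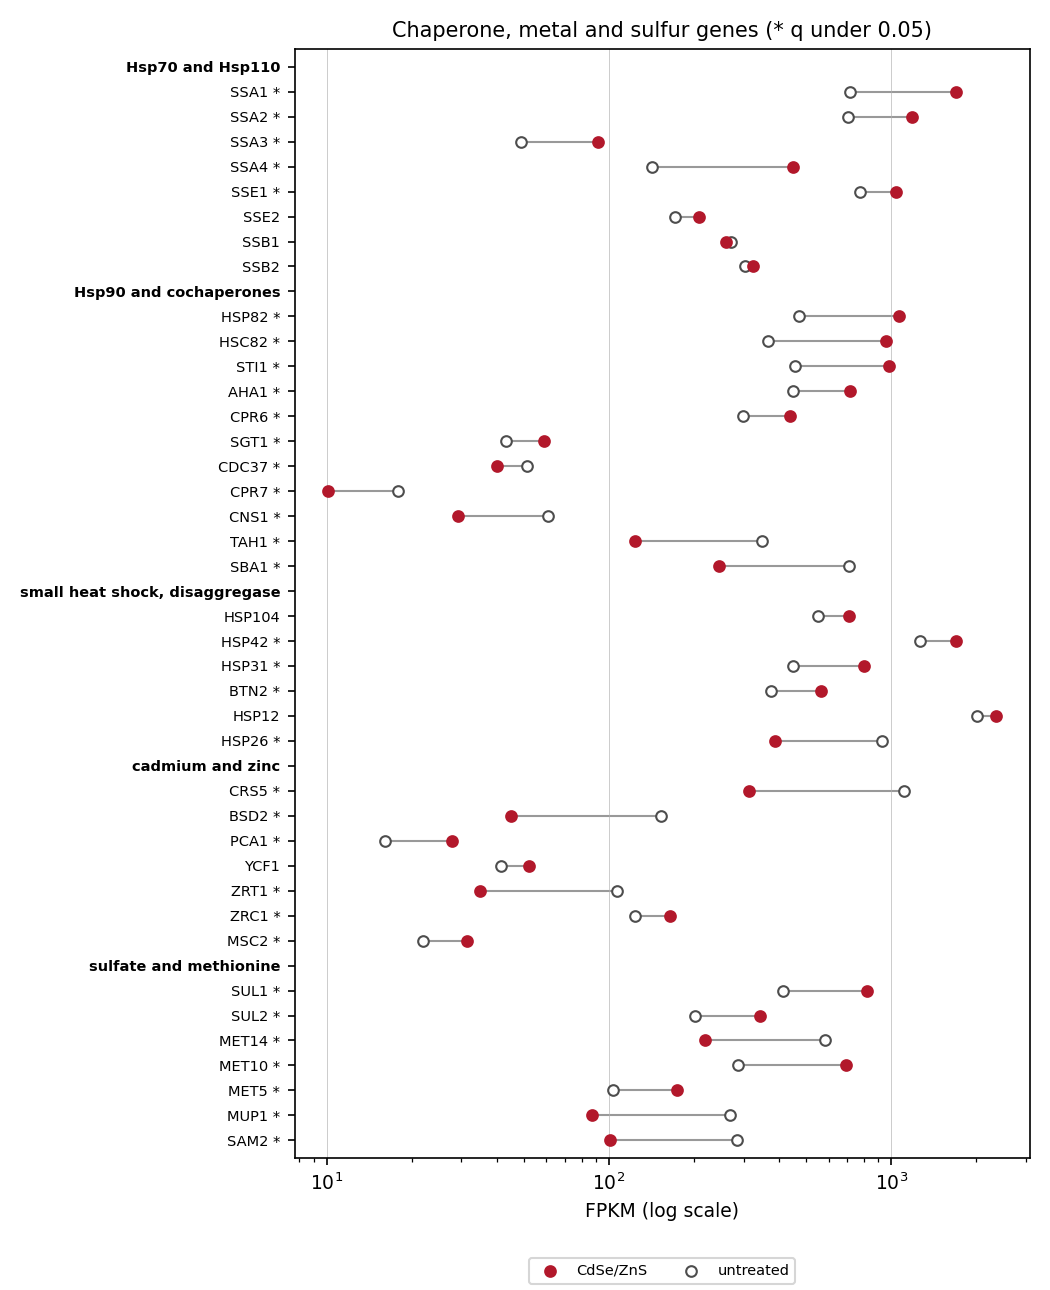
FPKM (log scale) of chaperone, metal and sulfur genes by role; filled points are CdSe/ZnS and open points untreated, each 1 pooled value, and an asterisk marks a call. The SSA genes of the Hsp70 class, both Hsp90 genes and STI1 lie to the right with CdSe/ZnS. By contrast, SBA1, HSP26, CRS5, BSD2, ZRT1, MET14, MUP1 and SAM2 lie to the left.

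Genes that handle cadmium and other metals did not move as a block. Of 9, 2 rose and 4 fell, with a median of -0.26 that turned to 0.11 relative to the median. PCA1, a P-type pump that exports cadmium, rose (27.9 FPKM with CdSe/ZnS against 16.0 untreated, 0.80, SE 0.22); in many laboratory strains its product is known to be inactive. SMF3, a vacuolar metal transporter gene, rose (74.9 FPKM with CdSe/ZnS against 53.4 untreated). YCF1, the vacuolar pump for glutathione conjugates, stood at 52.3 FPKM with CdSe/ZnS against 41.4 untreated and was not called (q = 0.0564 in the authors' deposited table), although it was called higher relative to the median, at 0.71. CRS5, a metallothionein gene, fell (314 FPKM with CdSe/ZnS against 1110.0 untreated, -1.82, SE 0.29), as did BSD2, which sends metal transporters to the vacuole for breakdown (45.1 FPKM with CdSe/ZnS against 152 untreated, -1.76, SE 0.23). The manganese transporter gene SMF2 (34.3 FPKM with CdSe/ZnS against 55.3 untreated) and the Yap-family gene CAD1 (68.2 FPKM with CdSe/ZnS against 113 untreated) fell as well.

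Zinc genes moved in both directions. ZRT1, the high-affinity uptake transporter, had 34.9 FPKM with CdSe/ZnS and 107 FPKM untreated (-1.61, SE 0.22). ZRC1, which moves zinc into the vacuole, rose (165 FPKM with CdSe/ZnS against 123 untreated), and MSC2, a zinc transporter of the endoplasmic reticulum, rose (31.4 FPKM with CdSe/ZnS against 22.0 untreated), while its partner ZRG17 fell (26.5 FPKM with CdSe/ZnS against 41.3 untreated). The low-affinity ZRT2 (90.5 FPKM with CdSe/ZnS against 84.5 untreated) and ZRT3, which releases zinc from the vacuole (77.5 FPKM with CdSe/ZnS against 76.3 untreated), were not called. ZAP1 fell slightly (21.01 FPKM with CdSe/ZnS against 26.5 untreated) but turned to 0.04 relative to the median. In counts, 3 of 15 rose and 5 fell. The 11-base Zap1 element occurred in 3 of 5225 windows, those of ZRT1, ZRG17 and YNR040W, a gene of uncharacterised function, and all 3 genes fell, YNR040W with a log2 fold change of -1.41. In ZRT1 it began 204 bases before the start.

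Iron genes had 6 higher and 9 lower of 27. The high-affinity oxidase gene FET3 rose (226 FPKM with CdSe/ZnS against 123 untreated, 0.88, SE 0.21), whereas FTR1, its permease partner, was not called (59.5 FPKM with CdSe/ZnS against 58.0 untreated). The siderophore transporter genes SIT1 (31.0 FPKM with CdSe/ZnS against 20.03 untreated) and ARN1 (37.6 FPKM with CdSe/ZnS against 27.1 untreated) and the reductase gene FRE2 (12.4 FPKM with CdSe/ZnS against 7.28 untreated) rose. The siderophore transporter gene ENB1 (74.6 FPKM with CdSe/ZnS against 166 untreated), TIS11, which destabilises messages of iron-using proteins (28.2 FPKM with CdSe/ZnS against 67.4 untreated), and HMX1, a heme oxygenase gene (14.0 FPKM with CdSe/ZnS against 30.7 untreated), fell. AFT1, the iron regulator, fell (58.8 FPKM with CdSe/ZnS against 95.3 untreated). Of 9 copper genes, 1 rose, CTR1, the plasma membrane transporter (22.2 FPKM with CdSe/ZnS against 15.0 untreated), and 5 fell, among them CUP2, the activator of metallothionein genes (101 FPKM with CdSe/ZnS against 327 untreated), and COX17, a copper chaperone gene (171 FPKM with CdSe/ZnS against 425 untreated); CTR1 and CUP2 share their loci.

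Sulfate uptake and reduction rose in part. SUL1 and SUL2, the sulfate permeases, stood at 821 FPKM with CdSe/ZnS against 414 untreated and 343 FPKM with CdSe/ZnS against 201 untreated, log2 fold changes of 0.99 (SE 0.27) and 0.77 (SE 0.25). MET10 and MET5, the subunits of sulfite reductase, rose as well (689.5 FPKM with CdSe/ZnS against 287 untreated and 174 FPKM with CdSe/ZnS against 103 untreated). MET3, ATP sulfurylase (274 FPKM with CdSe/ZnS against 249.7 untreated), and MET16, which reduces activated sulfate (1297 FPKM with CdSe/ZnS against 1125 untreated), were not called. Between those steps MET14, the kinase that adds the second phosphate, fell (219.8 FPKM with CdSe/ZnS against 583 untreated, -1.41, SE 0.23), as did MET8, needed for the siroheme of sulfite reductase (91.0 FPKM with CdSe/ZnS against 208 untreated). Together 4 of 9 rose and 2 fell, with a median of 0.28, or 0.65 relative to the median.

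Downstream, methionine, cysteine and S-adenosylmethionine genes had 1 higher and 9 lower of 17. These were 5.88% and 52.9%, against 9.64% and 46.2% of all entries. The median of -0.38 was -0.01 relative to the median, with 2 called higher and 2 lower on that scale. MUP1, the high-affinity methionine permease, fell (86.8 FPKM with CdSe/ZnS against 267 untreated, -1.62, SE 0.24), as did SAM2, S-adenosylmethionine synthetase (101 FPKM with CdSe/ZnS against 284 untreated), SAM4 (152 FPKM with CdSe/ZnS against 269.8 untreated), STR2 (283 FPKM with CdSe/ZnS against 428 untreated) and CYS3 of cysteine synthesis (577 FPKM with CdSe/ZnS against 868 untreated). MMP1, an S-methylmethionine permease gene, rose (113 FPKM with CdSe/ZnS against 61.9 untreated). Of the regulators, MET4 fell (108 FPKM with CdSe/ZnS against 152 untreated) and so did MET30, the ubiquitin ligase subunit that restrains it (109.6 FPKM with CdSe/ZnS against 188 untreated), whereas MET32, a DNA-binding partner of Met4, rose (109 FPKM with CdSe/ZnS against 77.9 untreated) and MET31, its near relative, fell (38.04 FPKM with CdSe/ZnS against 63.1 untreated). None of the 9 sulfate genes held the 9-letter Met31 and Met32 element AAACTGTGG in its 300-base window, which 0.440% of all windows did.

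Thiol and redox genes were lower or not called in the thioredoxin system. Of 13, 0 rose and 9 fell, with a median of -0.79, which was -0.42 relative to the median and -0.13 with the length trend removed. TRX2 (516 FPKM with CdSe/ZnS against 1197 untreated) and TRX1 (272 FPKM with CdSe/ZnS against 535 untreated), the cytosolic thioredoxins, both fell, and so did AHP1 (1579 FPKM with CdSe/ZnS against 2917 untreated) and TSA2 (50.7 FPKM with CdSe/ZnS against 104 untreated), peroxiredoxin genes. The more abundant peroxiredoxin gene TSA1 (1084 FPKM with CdSe/ZnS against 1273 untreated) and the reductase gene TRR1 (395 FPKM with CdSe/ZnS against 497 untreated) were not called. SOD1, cytosolic superoxide dismutase, fell (1539.7 FPKM with CdSe/ZnS against 2127 untreated), but turned to 0.20 with the length trend removed, and CTT1, cytosolic catalase, stood at 59.0 FPKM with CdSe/ZnS against 56.1 untreated and was not called.

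Glutathione genes showed both directions, 5 higher and 12 lower of 26. These were 19.2% and 46.2%, against 9.64% and 46.2% of all entries, so the lower share was that of all entries. Their median of -0.28 was 0.09 relative to the median. GSH1, the rate-limiting synthetase, was not called (118 FPKM with CdSe/ZnS against 106 untreated), nor was GSH2 (79.9 FPKM with CdSe/ZnS against 85.0 untreated). GLR1, which reduces oxidised glutathione, rose (97.2 FPKM with CdSe/ZnS against 73.0 untreated), as did the glutaredoxin gene GRX4 (301 FPKM with CdSe/ZnS against 202 untreated), the transferase genes GTO1 (123 FPKM with CdSe/ZnS against 73.5 untreated) and ECM4 (128 FPKM with CdSe/ZnS against 86.3 untreated) and DUG1, a peptidase of glutathione breakdown (270.5 FPKM with CdSe/ZnS against 191 untreated). GRX1 (374 FPKM with CdSe/ZnS against 1361 untreated, -1.86, SE 0.23), GTO3 (22.3 FPKM with CdSe/ZnS against 104 untreated) and the glutathione peroxidase gene GPX2 (101 FPKM with CdSe/ZnS against 259.8 untreated) fell, on the values as deposited, by more than any of these rose. GRX6, which shares its locus, had 57.4 FPKM with CdSe/ZnS against 278 untreated.

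Sources of NADPH, the reductant of both systems, had 5 higher and 4 lower of 17. IDP1, the mitochondrial isocitrate dehydrogenase that makes NADPH, had 3559.8 FPKM with CdSe/ZnS and 1062 FPKM untreated (1.75, SE 0.24), the highest level with CdSe/ZnS in this list. OYE3, an old yellow enzyme that reduces unsaturated aldehydes and ketones, had 35.2 FPKM with CdSe/ZnS against 11.1 untreated (1.67, SE 0.25). TAL1 of the pentose phosphate pathway rose (893 FPKM with CdSe/ZnS against 617 untreated), while ZWF1, its first enzyme, was not called (774 FPKM with CdSe/ZnS against 701 untreated). ALD6, a cytosolic source of NADPH, fell (191 FPKM with CdSe/ZnS against 412 untreated), and so did OYE2 (353 FPKM with CdSe/ZnS against 621 untreated).

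Drug efflux pumps rose and fell in nearly equal number, 9 and 8 of 20, shares of which the higher was above and the lower close to those of all entries. The pumps of the ATP-binding cassette class YOR1 (40.02 FPKM with CdSe/ZnS against 21.1 untreated), PDR12 (48.2 FPKM with CdSe/ZnS against 26.02 untreated) and PDR5 (32.8 FPKM with CdSe/ZnS against 19.9 untreated) rose, with the proton-driven TPO1 (145 FPKM with CdSe/ZnS against 82.8 untreated) and QDR2 (329.5 FPKM with CdSe/ZnS against 189.9 untreated). AQR1 (18.5 FPKM with CdSe/ZnS against 75.7 untreated, -2.04, SE 0.25), TPO2 (35.4 FPKM with CdSe/ZnS against 137 untreated) and PDR10 (11.9 FPKM with CdSe/ZnS against 30.4 untreated) fell. PDR3, a regulator of such pumps, rose (27.5 FPKM with CdSe/ZnS against 18.99 untreated) and PDR1 was not called (26.1 FPKM with CdSe/ZnS against 31.4 untreated). The median of the pumps was 0.26, and 0.63 relative to the median.

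Regulators of stress responses were mostly lower, 2 rising and 18 falling of 24, with a median of -0.58, -0.21 relative to the median and -0.35 with the length trend removed. RLM1, the transcription factor of the cell wall integrity pathway (32.7 FPKM with CdSe/ZnS against 107 untreated, -1.71, SE 0.23), and CRZ1, that of calcineurin (42.8 FPKM with CdSe/ZnS against 118 untreated, -1.47, SE 0.24), fell furthest. MSN2 (25.6 FPKM with CdSe/ZnS against 53.1 untreated) and MSN4 (81.4 FPKM with CdSe/ZnS against 148 untreated), the general stress activators, both fell, as did the kinase genes SLT2 (51.1 FPKM with CdSe/ZnS against 90.7 untreated) and PBS2 (31.8 FPKM with CdSe/ZnS against 57.9 untreated). YAP1 was not called (94.97 FPKM with CdSe/ZnS against 103 untreated). GIS1 (40.2 FPKM with CdSe/ZnS against 29.1 untreated) and YAP5, an iron sensor (108 FPKM with CdSe/ZnS against 82.9 untreated), rose. Relative to the median, 3 were called higher and 4 lower.

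**Figure D5:**
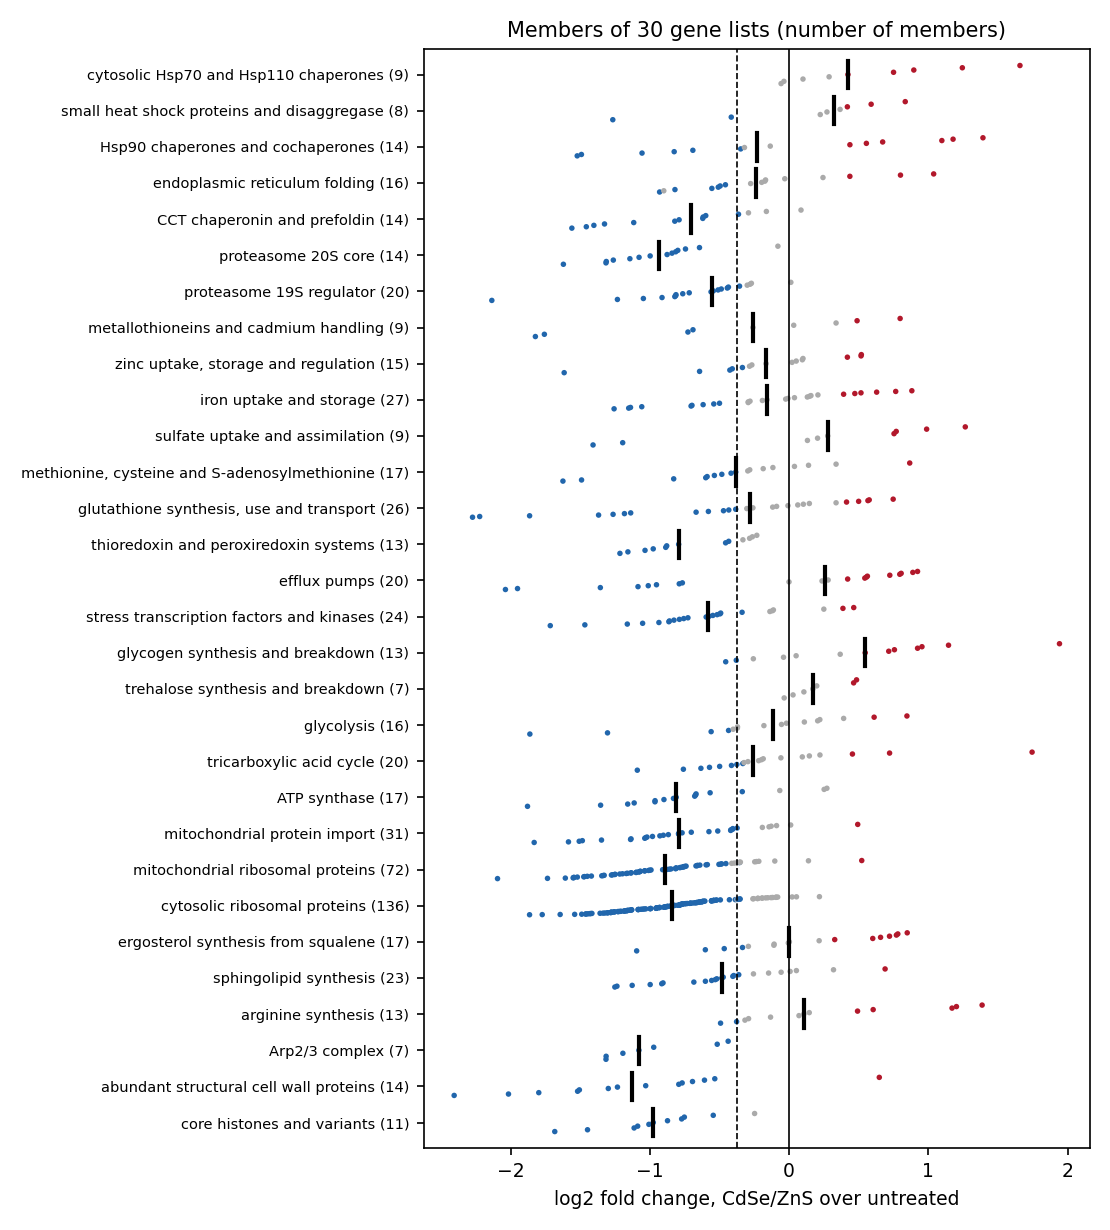
Log2 fold change of CdSe/ZnS over untreated for the members of 30 gene lists; each point is 1 gene, red higher and blue lower by the authors' call, black bars are list medians and the dashed line is the median of all entries, -0.37. Hsp70, small heat shock, glycogen and sulfate lists have medians above 0, whereas proteasome, ribosomal, abundant wall protein and Arp2/3 lists lie well left of the dashed line.

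Of 13 genes of glycogen metabolism 7 rose and 2 fell, with a median of 0.55, or 0.92 relative to the median. Both directions of the pathway took part. GSY1, glycogen synthase (74.2 FPKM with CdSe/ZnS against 33.6 untreated, 1.15, SE 0.26), GLC3, the branching enzyme (169.7 FPKM with CdSe/ZnS against 116 untreated), and PGM2, which supplies glucose 1-phosphate (110.2 FPKM with CdSe/ZnS against 65.2 untreated), rose. So did GDB1, the debranching enzyme (55.3 FPKM with CdSe/ZnS against 28.6 untreated), and GPH1, glycogen phosphorylase (101 FPKM with CdSe/ZnS against 26.3 untreated), which shares its locus. GAC1 (17.0 FPKM with CdSe/ZnS against 8.96 untreated) and PIG2 (44.01 FPKM with CdSe/ZnS against 26.8 untreated), targeting subunits of the phosphatase that activates the synthase, rose as well. For trehalose, 2 of 7 rose, TPS2, the phosphatase of its synthesis (185 FPKM with CdSe/ZnS against 132 untreated), and NTH2, a trehalase gene (54.7 FPKM with CdSe/ZnS against 39.6 untreated), and 0 fell.

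In glucose handling HXT6 (73.4 FPKM with CdSe/ZnS against 23.0 untreated) and HXT7 (196 FPKM with CdSe/ZnS against 55.9 untreated), nearly identical high-affinity transporters, were the 2 of 14 that rose, and 6 fell, including HXT4 (158 FPKM with CdSe/ZnS against 315 untreated) and HXT2 (142 FPKM with CdSe/ZnS against 229 untreated). HXK1, a hexokinase repressed by glucose that shares its locus, rose (834 FPKM with CdSe/ZnS against 250.2 untreated), and HXK2, its counterpart in glucose-grown cells, fell (286 FPKM with CdSe/ZnS against 411 untreated). The repressor genes MIG1 (67.2 FPKM with CdSe/ZnS against 114 untreated) and MIG2 (74.6 FPKM with CdSe/ZnS against 242 untreated, -1.70, SE 0.23) fell, and ADR1, an activator of genes for growth without glucose, rose (53.5 FPKM with CdSe/ZnS against 36.5 untreated). Of 18 genes in that list 5 rose and 11 fell. In glycolysis 2 of 16 rose and 4 fell. PFK2 rose (232 FPKM with CdSe/ZnS against 152 untreated), as did PGK1, which shares its locus (2648 FPKM with CdSe/ZnS against 1472 untreated), while TDH1, a stress-related isoform of glyceraldehyde phosphate dehydrogenase, fell (391 FPKM with CdSe/ZnS against 1420.0 untreated, -1.86, SE 0.22) and the main isoform TDH3 was not called (11962 FPKM with CdSe/ZnS against 10373 untreated).

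Pyruvate, ethanol and acetate enzymes were lower. Of 19, 0 rose and 13 fell; the median of -0.46 turned positive if totals were made equal, and was -0.09 relative to the median. PDC6, a minor pyruvate decarboxylase gene (43.7 FPKM with CdSe/ZnS against 168 untreated), and ALD3, a stress-induced aldehyde dehydrogenase gene (22.1 FPKM with CdSe/ZnS against 79.9 untreated), fell furthest, and the main decarboxylase gene PDC1 fell less (2746 FPKM with CdSe/ZnS against 3974 untreated). Of 20 genes of the tricarboxylic acid cycle 3 rose, among them ACO1, aconitase (292 FPKM with CdSe/ZnS against 177 untreated), and 8 fell, among them CIT2, the peroxisomal citrate synthase of the retrograde response (606 FPKM with CdSe/ZnS against 1289 untreated, -1.09, SE 0.27).

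Nuclear genes for energy conversion in the mitochondrion fell more often than they rose. ATP synthase had 0 higher and 14 lower of 17, and its large catalytic subunits ATP1, which shares its locus (346 FPKM with CdSe/ZnS against 290.3 untreated), and ATP2 (526 FPKM with CdSe/ZnS against 435 untreated) were among the 3 not called. The small membrane subunit gene ATP19 fell furthest (475 FPKM with CdSe/ZnS against 1747 untreated, -1.88, SE 0.24). Its list median was -0.81, and -0.07 with the length trend removed. Complexes II to IV with cytochrome c and the NADH dehydrogenases had 2 higher and 18 lower of 27; their median of -0.57 turned to 0.07 with the length trend removed. COX8 (154 FPKM with CdSe/ZnS against 413 untreated) and COX5B (245 FPKM with CdSe/ZnS against 601 untreated) fell, and NDE1, an external NADH dehydrogenase gene, rose (178 FPKM with CdSe/ZnS against 107 untreated).

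Protein import into mitochondria had 1 higher and 25 lower of 31; the median was -0.79, -0.42 relative to the median and -0.25 with the length trend removed. TOM6 (299 FPKM with CdSe/ZnS against 895 untreated) and TOM5 (1274 FPKM with CdSe/ZnS against 3566 untreated), small subunits of the outer membrane pore, fell, and TOM40, the pore itself, rose (176 FPKM with CdSe/ZnS against 125 untreated). Among 8 genes of mitochondrial fatty acid synthesis, which supplies lipoic acid, OAR1, the reductase, rose (81.7 FPKM with CdSe/ZnS against 25.5 untreated, 1.68, SE 0.26) while 5 fell, among them HTD2 (16.9 FPKM with CdSe/ZnS against 37.9 untreated), ETR1 (33.7 FPKM with CdSe/ZnS against 62.0 untreated) and CEM1 (35.8 FPKM with CdSe/ZnS against 65.7 untreated) of the same cycle. OAR1 thus went against the 5 that fell in its own pathway.

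Ribosomal protein genes fell with few exceptions. Of 136 cytosolic ones 0 rose and 117 fell, with a median of -0.84, -0.47 relative to the median (1 higher and 48 lower) and -0.32 with the length trend removed. RPS29B, for example, had 5361 FPKM with CdSe/ZnS against 15582 untreated and RPL15B 78.5 FPKM with CdSe/ZnS against 216 untreated; many have a near-identical copy, which makes a single value uncertain. Of 72 mitochondrial ones 1 rose, NAM9 (49.6 FPKM with CdSe/ZnS against 34.5 untreated), and 61 fell, including MRPL27 (21.6 FPKM with CdSe/ZnS against 65.8 untreated) and MRPL50 (26.3 FPKM with CdSe/ZnS against 77.0 untreated). Their median was -0.89, -0.52 relative to the median and -0.35 with the length trend removed.

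Factors that assemble and run ribosomes moved less. Of 87 ribosome biogenesis genes 6 rose and 38 fell, close to the shares of all entries, and the median of -0.29 turned to 0.08 relative to the median. Translation factors had 5 higher and 16 lower of 38. PAB1, the poly(A)-binding protein (537 FPKM with CdSe/ZnS against 296 untreated), FUN12, initiation factor 5B (67.1 FPKM with CdSe/ZnS against 41.5 untreated), and the elongation factor genes EFT1 (70.3 FPKM with CdSe/ZnS against 50.6 untreated), EFT2 (107 FPKM with CdSe/ZnS against 72.5 untreated) and TEF2 (660.0 FPKM with CdSe/ZnS against 481 untreated) rose; EFT1 and EFT2 encode identical proteins, as do TEF1 and TEF2, and may share reads. SUI1, initiation factor 1 (852 FPKM with CdSe/ZnS against 1425 untreated), and GCN3 (25.3 FPKM with CdSe/ZnS against 44.9 untreated) fell. GCN4, the activator of amino acid synthesis, fell (970.5 FPKM with CdSe/ZnS against 1349 untreated), with a log2 fold change of -0.47 that turned to 0.06 with the length trend removed.

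RNA polymerase II and the Mediator complex, which links it to activators, had 1 higher and 22 lower of 34; the median was -0.57, -0.20 relative to the median and -0.25 with the length trend removed. The Mediator genes CSE2 (26.4 FPKM with CdSe/ZnS against 92.3 untreated), SOH1 (131 FPKM with CdSe/ZnS against 389.6 untreated) and ROX3 (190.0 FPKM with CdSe/ZnS against 544 untreated) fell furthest, followed by RPB11 of the polymerase (143 FPKM with CdSe/ZnS against 408 untreated), and RPB9 fell (53.3 FPKM with CdSe/ZnS against 133 untreated). RPO21, the largest subunit, fell (46.6 FPKM with CdSe/ZnS against 86.7 untreated) and RPB2 was not called (51.9 FPKM with CdSe/ZnS against 60.9 untreated). By contrast RPA190, the largest subunit of polymerase I (53.1 FPKM with CdSe/ZnS against 32.4 untreated), and RET1, the second largest of polymerase III (69.5 FPKM with CdSe/ZnS against 49.4 untreated), rose, among 2 higher and 11 lower of 20.

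Proteasome genes were lower. Of the 14 genes of its 20S core 0 rose and 13 fell, and the median of -0.94 was -0.56 relative to the median (7 lower) and -0.30 with the length trend removed. PRE6 had 73.5 FPKM with CdSe/ZnS and 226 FPKM untreated (-1.62, SE 0.20) and PRE9 had 106 FPKM with CdSe/ZnS against 264 untreated (-1.31, SE 0.22). SCL1 (97.3 FPKM with CdSe/ZnS against 242 untreated) and PUP1 (71.3 FPKM with CdSe/ZnS against 171 untreated) fell likewise, and PRE8 alone was not called (196 FPKM with CdSe/ZnS against 208 untreated). Of the 19S list, the cap that unfolds substrates together with its activator, 0 of 20 rose and 16 fell, including RPN6 (74.97 FPKM with CdSe/ZnS against 176 untreated), RPT3 (90.4 FPKM with CdSe/ZnS against 187 untreated) and SEM1 (316 FPKM with CdSe/ZnS against 1389 untreated, -2.13, SE 0.26). RPN4, the activator, stood at 184 FPKM with CdSe/ZnS and 182 FPKM untreated and was not called.

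The Rpn4 element occurred in 67 of 5225 windows (1.28%). It stood in 12 of the 14 windows of the 20S core and 15 of the 20 of the 19S list, in 46 of 2590 upstream of genes that fell (1.78%) and in 4 of 531 upstream of genes that rose (0.753%). All genes with it had a median log2 fold change of -0.56. That median and the share among genes that fell include the proteasome genes described above, so neither is a separate observation on the element. In PRE6 it began 109 bases before the start, on the opposite strand, and in PRE9 159 bases before. PRE8, the core gene that was not called, holds it as well, and PUP1, which fell, does not.

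Ubiquitin genes had 3 higher and 12 lower of 25, or 12% and 48%, close to the shares of all entries. UBI4, the polyubiquitin gene of stress, rose (896 FPKM with CdSe/ZnS against 585 untreated), as did RSP5, a ubiquitin ligase gene (75.1 FPKM with CdSe/ZnS against 43.9 untreated), whereas UBC7 (74.2 FPKM with CdSe/ZnS against 209 untreated) and DOA1 (40.6 FPKM with CdSe/ZnS against 108 untreated) fell. Of 27 autophagy genes 2 rose and 16 fell, or 7.41% and 59.3%, against 9.64% and 46.2% of all entries. Their median of -0.42 was -0.05 relative to the median, with 4 called higher and 4 lower on that scale. ATG5 (57.7 FPKM with CdSe/ZnS against 184 untreated), ATG3 (24.3 FPKM with CdSe/ZnS against 74.5 untreated) and ATG12 (8.57 FPKM with CdSe/ZnS against 25.6 untreated), which act in the conjugation of Atg8, fell, and ATG8 itself fell (158 FPKM with CdSe/ZnS against 311 untreated). ATG22, a vacuolar exporter of amino acids, rose (19.4 FPKM with CdSe/ZnS against 11.5 untreated), and ATG1, the initiating kinase, was not called (134 FPKM with CdSe/ZnS against 107 untreated).

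In the vacuole, hydrolase genes had 2 higher and 3 lower of 11. APE3, an aminopeptidase gene (853 FPKM with CdSe/ZnS against 547 untreated), and PRC1, carboxypeptidase Y (682 FPKM with CdSe/ZnS against 491 untreated), rose, while PEP4, proteinase A that activates the others (375 FPKM with CdSe/ZnS against 493 untreated), and PRB1, proteinase B (751 FPKM with CdSe/ZnS against 1028 untreated), fell. The proton pump that acidifies it had 2 higher and 10 lower of 18, or 11.1% and 55.6%, against 9.64% and 46.2% of all entries. Its median of -0.53 turned to 0.02 with the length trend removed, where 4 were called higher and 0 lower. Its subunits VMA2 (613 FPKM with CdSe/ZnS against 411 untreated) and VMA16 (153 FPKM with CdSe/ZnS against 117 untreated) rose, and the small subunits VMA10 (449 FPKM with CdSe/ZnS against 889 untreated) and VMA7 (422 FPKM with CdSe/ZnS against 796 untreated) fell. Of 31 nuclear pore genes 2 rose, NUP157 (30.0 FPKM with CdSe/ZnS against 20.996 untreated) and MLP2 (17.9 FPKM with CdSe/ZnS against 12.3 untreated), and 15 fell, NUP42, which shares its locus (16.0 FPKM with CdSe/ZnS against 40.01 untreated), and NUP100 (25.5 FPKM with CdSe/ZnS against 56.1 untreated) furthest. The nuclear pore shares, 6.45% higher and 48.4% lower, were close to the 9.64% and 46.2% of all entries. Their median of -0.30 turned to 0.07 relative to the median.

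Endocytosis genes that build branched actin were lower. All 7 genes of the Arp2/3 complex, which branches actin filaments, fell, ARC15 (145 FPKM with CdSe/ZnS against 362 untreated) and ARC18 (129.8 FPKM with CdSe/ZnS against 323 untreated) furthest and ARC40 least (67.3 FPKM with CdSe/ZnS against 91.2 untreated); the median was -1.08, -0.71 relative to the median and -0.62 with the length trend removed. Of the 9 genes of the module that activates it 8 fell and 0 rose, with LAS17, the yeast WASP (41.1 FPKM with CdSe/ZnS against 92.5 untreated), and the motor genes MYO3 (22.2 FPKM with CdSe/ZnS against 52.2 untreated) and MYO5 (20.4 FPKM with CdSe/ZnS against 37.8 untreated). ACT1, actin itself, stood at 632 FPKM with CdSe/ZnS against 599 untreated and was not called. Among coat genes CHC1, the clathrin heavy chain, rose (48.8 FPKM with CdSe/ZnS against 30.0 untreated) and CLC1, the light chain, fell (169 FPKM with CdSe/ZnS against 347 untreated), within 1 higher and 12 lower of 18. The coat median of -0.47 was -0.10 relative to the median and -0.27 with the length trend removed.

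Of 17 genes of actin patches and scission 0 rose and 11 fell, CAP2 (84.6 FPKM with CdSe/ZnS against 207 untreated) and CAP1 (58.3 FPKM with CdSe/ZnS against 121 untreated), which cap filaments, furthest. The 11 were 64.7%, against 46.2% of all entries. The median of -0.48 was -0.10 relative to the median, where 3 were called lower. With the length trend removed it was -0.11, with 1 called lower.

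Rab GTPase genes had 0 higher and 9 lower of 11, from YPT53 (23.2 FPKM with CdSe/ZnS against 173 untreated, -2.89, SE 0.24) and VPS21 (155 FPKM with CdSe/ZnS against 381 untreated) of the endosome to YPT1 of the early secretory route (204 FPKM with CdSe/ZnS against 467 untreated), and YPT7 of the vacuole was not called (80.04 FPKM with CdSe/ZnS against 73.2 untreated). The Rab median of -0.79 was -0.42 relative to the median and -0.20 with the length trend removed. Of 19 genes of the ESCRT complexes, which sort proteins into the vacuole, 1 rose, BRO1 (39.7 FPKM with CdSe/ZnS against 30.8 untreated), and 13 fell, VPS36 furthest (37.5 FPKM with CdSe/ZnS against 157 untreated), but their median of -0.59 was 0.00 with the length trend removed.

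Genes for abundant cell wall proteins were lower. Of 14, 13 fell and 1 rose, with a median of -1.13, -0.76 relative to the median and -0.50 with the length trend removed. SED1, the main wall protein of stationary phase, had 1377 FPKM with CdSe/ZnS against 5565 untreated (-2.01, SE 0.25), HSP150 605 FPKM with CdSe/ZnS against 2103 untreated, SPI1 524 FPKM with CdSe/ZnS against 2775 untreated and PST1 36.8 FPKM with CdSe/ZnS against 104 untreated. TIP1, a mannoprotein gene induced by cold, rose (2587 FPKM with CdSe/ZnS against 1651 untreated). Of 17 genes for enzymes of glucan and chitin, 1 rose and 8 fell, with a median of -0.15 that turned to 0.22 relative to the median. These were 5.88% and 47.1%, against 9.64% and 46.2% of all entries. FKS1, the main glucan synthase, rose (73.8 FPKM with CdSe/ZnS against 36.4 untreated, 1.02, SE 0.25), and CRH1 (72.4 FPKM with CdSe/ZnS against 311 untreated) and CHS1 (62.0 FPKM with CdSe/ZnS against 262 untreated), which crosslink and repair chitin, fell. In the membrane beneath, 1 of 12 eisosome and Sur7-family genes rose and 6 fell, with a median of -0.38, or 0.00 relative to the median. PUN1 (261 FPKM with CdSe/ZnS against 1719 untreated) and FMP45 (174 FPKM with CdSe/ZnS against 853 untreated) of the Sur7 family fell while SUR7 (85.1 FPKM with CdSe/ZnS against 89.5 untreated) and NCE102 (1326 FPKM with CdSe/ZnS against 1342 untreated) were not called.

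Lipid genes differed by class. Ergosterol genes from squalene onwards had 7 higher and 4 lower of 17, with ERG5 (39.8 FPKM with CdSe/ZnS against 22.1 untreated) and ERG4 (240.3 FPKM with CdSe/ZnS against 139.8 untreated) of the last steps, NCP1, the electron donor of the pathway (201 FPKM with CdSe/ZnS against 118 untreated), and ERG3 (297 FPKM with CdSe/ZnS against 196 untreated) higher and ERG27, which shares its locus (44.1 FPKM with CdSe/ZnS against 94.2 untreated), lower; ERG11 was not called (111 FPKM with CdSe/ZnS against 120.1 untreated). Sphingolipid genes had 1 higher and 16 lower of 23, the median of -0.48 turning positive if totals were made equal, with LCB1 (57.2 FPKM with CdSe/ZnS against 136 untreated) and TSC3 (134 FPKM with CdSe/ZnS against 267 untreated) of the first enzyme and ORM2, its inhibitor (425 FPKM with CdSe/ZnS against 800.2 untreated), lower and LAC1, a ceramide synthase gene, higher (45.0 FPKM with CdSe/ZnS against 27.9 untreated). Both subunits of fatty acid synthase, FAS1 (43.8 FPKM with CdSe/ZnS against 33.2 untreated) and FAS2 (115 FPKM with CdSe/ZnS against 73.7 untreated), and ELO1 (75.3 FPKM with CdSe/ZnS against 39.0 untreated) rose, and OLE1, the desaturase, fell (188 FPKM with CdSe/ZnS against 264 untreated).

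Hypoxic genes had 6 higher and 5 lower of 17. TIR1, a wall mannoprotein gene of anaerobic growth, rose the most of all nuclear genes, to 63.2 FPKM with CdSe/ZnS, against 7.65 FPKM untreated (3.05, SE 0.39). TIR1 passed the floor only through its level with CdSe/ZnS. Its relatives TIR2 (89.3 FPKM with CdSe/ZnS against 67.2 untreated) rose and TIR3 (16.8 FPKM with CdSe/ZnS against 15.3 untreated) and TIR4 (20.9 FPKM with CdSe/ZnS against 18.7 untreated) were not called. DAN4, of the same list, fell. HEM13, an oxygen-requiring enzyme of heme synthesis, rose (149 FPKM with CdSe/ZnS against 50.3 untreated), and MGA2, an activator of OLE1, rose (23.1 FPKM with CdSe/ZnS against 13.7 untreated). ROX1, the repressor of hypoxic genes, fell (144 FPKM with CdSe/ZnS against 375 untreated, -1.39, SE 0.23). HAP1, the heme-responsive activator, was not called (108 FPKM with CdSe/ZnS against 84.7 untreated), and HEM1, the first enzyme of the heme pathway, rose (393 FPKM with CdSe/ZnS against 289.6 untreated) with HEM3 (115 FPKM with CdSe/ZnS against 86.0 untreated), while HEM12 (70.4 FPKM with CdSe/ZnS against 127 untreated) and HEM15 (52.1 FPKM with CdSe/ZnS against 78.6 untreated) fell.

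Several amino acid pathways rose in part. Arginine synthesis had 5 higher and 2 lower of 13, with ARG3 (479 FPKM with CdSe/ZnS against 183 untreated, 1.39, SE 0.24), ARG8 (545 FPKM with CdSe/ZnS against 237 untreated) and ARG7 (1684 FPKM with CdSe/ZnS against 1198 untreated) among the higher, and ARG5,6, which shares its locus, at 759 FPKM with CdSe/ZnS against 337 untreated. ARG1 (4909.8 FPKM with CdSe/ZnS against 4439.8 untreated) and ARG4 (3241 FPKM with CdSe/ZnS against 3012 untreated), the last enzymes, were at high levels and not called. For glycine and 1-carbon units SHM1 (517 FPKM with CdSe/ZnS against 252 untreated) and SHM2 (1143 FPKM with CdSe/ZnS against 589 untreated), the mitochondrial and cytosolic serine hydroxymethyltransferases, GCV1 (476 FPKM with CdSe/ZnS against 337 untreated) and GCV2 (169 FPKM with CdSe/ZnS against 83.3 untreated) rose, 4 of 13, and 3 fell. ARO1 of aromatic amino acid synthesis rose (388 FPKM with CdSe/ZnS against 209 untreated) and ARO2, the enzyme after it, fell (464 FPKM with CdSe/ZnS against 899.7 untreated). The Gcn4 element TGACTC occurred in 8.48% of all windows, 11.7% of those of genes that rose and 6.99% of those of genes that fell. Of the 443 genes with it, 62 rose and 181 fell, with a median log2 fold change of -0.24. The 62 include genes named above, such as ARG8 and GCV2, so that share is not a separate observation on the element. It stood in 7 of the 13 arginine windows. ARG3, which rose, lacks it there, and ARG81, which fell, holds it.

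Other synthesis lists had higher shares of rising genes than all entries. For lysine, histidine and tryptophan 6 of 26 rose and 6 fell, LYS1, the last enzyme of lysine synthesis, among the higher (1792 FPKM with CdSe/ZnS against 1259 untreated) and HIS3 among the lower. For branched-chain amino acids 3 of 11 rose, among them LEU1 (971 FPKM with CdSe/ZnS against 733 untreated), and 3 fell, among them ILV5 (1679.9 FPKM with CdSe/ZnS against 2463 untreated). For purines 5 of 21 rose, among them ADE17 (400.4 FPKM with CdSe/ZnS against 261 untreated) and ADE6 (205 FPKM with CdSe/ZnS against 139 untreated), and 5 fell, among them ADE16 (98.6 FPKM with CdSe/ZnS against 168 untreated), the isozyme of ADE17. Of 20 cytosolic aminoacyl-tRNA synthetase genes 3 rose, among them DED81 for asparagine (777 FPKM with CdSe/ZnS against 575 untreated), and 4 fell, among them KRS1 for lysine (569.7 FPKM with CdSe/ZnS against 884 untreated). Of 11 genes of gluconeogenesis, the glyoxylate cycle and the carnitine shuttle 3 rose, ICL1, isocitrate lyase (175 FPKM with CdSe/ZnS against 115 untreated), YAT1 (97.1 FPKM with CdSe/ZnS against 53.8 untreated) and CRC1 (43.7 FPKM with CdSe/ZnS against 33.4 untreated), and MDH2 fell (47.6 FPKM with CdSe/ZnS against 91.2 untreated).

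Nitrogen genes were split. MEP2, the high-affinity ammonium permease, rose (322 FPKM with CdSe/ZnS against 119.8 untreated, 1.43, SE 0.22), and MEP1 (135 FPKM with CdSe/ZnS against 223 untreated) and MEP3 (106 FPKM with CdSe/ZnS against 143 untreated) fell. The general permease genes GAP1 (66.4 FPKM with CdSe/ZnS against 51.6 untreated) and CAN1, the arginine permease (265 FPKM with CdSe/ZnS against 184 untreated), rose and AGP1 fell (188 FPKM with CdSe/ZnS against 578 untreated). Among enzymes PUT2 of proline use (317 FPKM with CdSe/ZnS against 148 untreated) and DAL3 of allantoin use (54.5 FPKM with CdSe/ZnS against 23.5 untreated) rose, while GLN1, glutamine synthetase, fell (873 FPKM with CdSe/ZnS against 2221 untreated, -1.35, SE 0.23). The permease list had 3 higher and 6 lower of 10, or 30% and 60%. The list of enzymes and regulators had 3 and 8 of 17, or 17.6% and 47.1%. All entries had 9.64% and 46.2%.

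Core histone genes, which are expressed in S phase, were lower. Of 11 with variants 10 fell and 0 rose, with a median of -0.97, -0.60 relative to the median and -0.28 with the length trend removed. HHF2 (612 FPKM with CdSe/ZnS against 1965 untreated), HHT1 (563 FPKM with CdSe/ZnS against 1536 untreated) and HTB1 (862 FPKM with CdSe/ZnS against 1865 untreated) fell and HTA1 was not called (1369.5 FPKM with CdSe/ZnS against 1626 untreated). Among cyclins CLN3, which starts the cycle in G1, fell (14.3 FPKM with CdSe/ZnS against 52.1 untreated, -1.86, SE 0.24), with CLN2 (8.46 FPKM with CdSe/ZnS against 19.01 untreated) and PCL1 (26.3 FPKM with CdSe/ZnS against 57.4 untreated), and so did SIC1, the inhibitor of S phase (41.0 FPKM with CdSe/ZnS against 97.0 untreated). ASH1 (16.8 FPKM with CdSe/ZnS against 54.7 untreated) and EGT2 (30.3 FPKM with CdSe/ZnS against 74.2 untreated), expressed in early G1, fell, whereas DSE1, also a daughter gene, rose (148 FPKM with CdSe/ZnS against 78.9 untreated). Their list of 13 daughter cell separation genes had 1 higher and 5 lower, or 7.69% and 38.5%, fewer than among all entries. Its median of -0.13 turned to 0.25 relative to the median and 0.13 with the length trend removed. Of 23 replication genes 2 rose and 9 fell, or 8.70% and 39.1%, both below the 9.64% and 46.2% of all entries.

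The largest single changes also included genes outside these lists. After TIR1, the small frame YOR192C-C (79.7 FPKM with CdSe/ZnS against 15.6 untreated, 2.36, SE 0.84) rose the most of nuclear genes whose locus holds no other entry, and SNA2, a small membrane protein gene, rose to 703 FPKM with CdSe/ZnS, against 229.7 FPKM untreated (1.61, SE 0.30). FRM2, a nitroreductase-like gene of oxidative stress, rose (130.1 FPKM with CdSe/ZnS against 47.9 untreated, 1.44, SE 0.24), as did the small frame YDR119W-A (1449.6 FPKM with CdSe/ZnS against 525 untreated). YHR130C (19.4 FPKM with CdSe/ZnS against 5.89 untreated), YKR104W (11.3 FPKM with CdSe/ZnS against 3.77 untreated) and YMR320W (185 FPKM with CdSe/ZnS against 65.5 untreated) rose likewise, although YHR130C did not pass the normal test. YHR130C and YKR104W passed the floor only through their level with CdSe/ZnS.

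SPS100, a spore wall gene, fell the most (15.9 FPKM with CdSe/ZnS against 207 untreated, -3.70, SE 0.25), and OSW2, also of the spore wall, fell too (7.85 FPKM with CdSe/ZnS against 42.5 untreated). YDL012C, a small tail-anchored membrane protein gene, had 610.3 FPKM with CdSe/ZnS against 6729.6 untreated (-3.46, SE 0.23), and YLR194C, a wall protein gene, 744 FPKM with CdSe/ZnS against 4784 untreated (-2.68, SE 0.21). The small frames YPR145C-A (679 FPKM with CdSe/ZnS against 6324 untreated, -3.22, SE 0.27) and YBR085C-A (1978 FPKM with CdSe/ZnS against 10542 untreated, -2.41, SE 0.26) were at high levels untreated and fell. GRE1, a hydrophilin gene of osmotic stress, fell (249.5 FPKM with CdSe/ZnS against 1292 untreated, -2.37, SE 0.20). BSC1 (2.52 FPKM with CdSe/ZnS against 19.9 untreated), YOL014W (79.5 FPKM with CdSe/ZnS against 553 untreated), YOL163W (36.8 FPKM with CdSe/ZnS against 210.5 untreated), YET2 (14.6 FPKM with CdSe/ZnS against 79.1 untreated) and YHR097C (139 FPKM with CdSe/ZnS against 731 untreated) completed the 15 largest decreases together with YPT53, PUN1 and SPI1. BSC1 and OSW2 passed the floor only through their untreated level. Genes commonly used as references stood at 18.8 FPKM with CdSe/ZnS against 21.5 untreated for ALG9, 132 FPKM with CdSe/ZnS against 195 untreated for TAF10 and 75.003 FPKM with CdSe/ZnS against 158 untreated for UBC6. Of 10 such genes 1 rose, PGK1, and 5 fell, or 10% and 50%, against 9.64% and 46.2% of all entries. ACT1 and TDH3, described above, stood higher without being called. The list median of -0.29 turned to 0.08 relative to the median.

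The InP/ZnS table gives values for the same genes, but at 100 µg/mL by the design text, a unit that the labels' treatment text contradicts, and with the same untreated libraries, so the values are set side by side without a comparison. Of its 5892 entries that passed the same rule, 1452 (24.6%) were higher and 1079 (18.3%) lower, and the median log2 fold change was 0.06. For SSA4, CdSe/ZnS gave a log2 fold change of 1.66 and InP/ZnS one of 2.53. For OYE3, CdSe/ZnS gave 1.67 and InP/ZnS 3.81, and for TIR1, CdSe/ZnS gave 3.05 and InP/ZnS 4.45. The values for IDP1 were 1.75 (CdSe/ZnS) and 0.99 (InP/ZnS), those for OAR1 1.68 (CdSe/ZnS) and 0.26 (InP/ZnS), and those for LSR1 1.61 (CdSe/ZnS) and -0.23 (InP/ZnS). In SED1 they were -2.01 (CdSe/ZnS) and -1.31 (InP/ZnS), in PRE6 -1.62 (CdSe/ZnS) and 0.12 (InP/ZnS), and in ZRT1 -1.61 (CdSe/ZnS) and -0.89 (InP/ZnS).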

How the data were processed

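RNA was sequenced from 6 libraries, 3 of yeast given CdSe/ZnS and 3 untreated, by stranded poly(A) mRNA kits with 15 cycles of amplification, per the labels. Per the text deposited with the tables, the authors trimmed 12 bases, dropped reads under 80 bp or below quality 20, aligned with TopHat to the S288C genome and compared conditions with Cuffdiff; the sources used here give no tool versions, strand counting or normalization setting. The table holds the authors' FPKM, fragments scaled by transcript length and library size, as 1 value per condition, with a log2 fold change, a test statistic (a score), and a p-value and q-value, all made by the authors before deposit. The total count per library is not known, so the depth and precision of a single library are unknown. The labels' treatment text names InP/ZnS alone for all libraries, so the CdSe/ZnS dose comes from the series' design text.

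From these values, log2 fold changes were computed for the 5760 entries tested by the authors with the higher level at least 10 FPKM. The SE is the absolute log2 fold change divided by the authors' test statistic. A normal test on that SE, with Benjamini-Hochberg adjustment over all 6321 tested entries, was applied to the values as deposited, after subtracting the median, and after subtracting the median of 20 bins of coding length. The procedure was run on simulated data, but its recovery of changes was checked only at an SE below that of most entries. Named genes were the 15 largest changes in each direction at loci with 1 entry, up to 5 called genes per direction of a list over 12 genes, any gene of a shorter list, and fixed regulators and references; others were chosen after their values were seen. The members and the gene lists were chosen with earlier results of these data known. Of the 5760 entries, 1017 (17.7%) overlap another, and their reads may be shared. Promoter windows come from RefSeq assembly R64, whose coordinates equal the table's for 99.8% of 4659 entries compared. Python 3.11.15, pandas 2.3.3, numpy 2.4.6, scipy 1.17.1 and matplotlib 3.10.9 were used.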

Additional observations from a re-analysis of the deposited data

Results flagged for a closer look

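Below the floor of 10 FPKM, which the comparison leaves out, 561 entries had been tested, of which 51 were called higher and 99 lower by the authors' q. They are singled out because data outside the comparison carry calls, and their low levels make each value less certain. DAN1, a wall mannoprotein gene of anaerobic growth like TIR1, had 3.94 FPKM with CdSe/ZnS and 0.669 FPKM untreated, whereas DAN4, which passed the floor, fell. HSP33, a relative of HSP31, had 4.31 FPKM with CdSe/ZnS and 1.44 FPKM untreated. IZH4, a membrane protein gene linked to zinc, had 6.66 FPKM with CdSe/ZnS and 2.35 FPKM untreated. IME2, a meiotic kinase gene, had 6.54 FPKM with CdSe/ZnS and 3.21 FPKM untreated.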

How the results depend on the processing

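The counts of 555 higher and 2660 lower entries stayed within 1.5 times under a q under 0.01, without the floor, with a floor of 1 FPKM, adjusted over these entries alone, without shared loci and for coding genes alone. They were 85 higher and 875 lower among changes of 1 or more on the log2 scale, and 309 higher and 1773 lower at a floor of 50 FPKM, since both settings remove entries. The normal test called 266 higher. Relative to the median it called 800 lower, and with the length trend removed 662 lower. The median log2 fold change was 0.15 with totals made equal, a reversal, and lay between -0.49 and -0.35 under the other alternatives. Among 59 named genes tested under each normal test, 4 reversals occurred, ZAP1 at 0.037 relative to the median, and GCN4 at 0.056, SOD1 at 0.20 and TAF10 at 0.10 with the length trend removed; their cause was not tested. Of the same 59 genes, 46 kept direction and side of the threshold relative to the median, 46 with the length trend removed and 53 under the normal test as deposited. No paired analysis was possible because the table gives 1 pooled value per condition, and for the same reason no library could be left out.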
